A study of Homo sapiens with 10 samples.

Results

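The stretch of chromosome 13 from 109 to 112 Mb (hg19) held 619 of the 30301 peaks in 7 ChIP-seq peak lists of ERG, a transcription factor, and of EWS, described as its co-activator. Its members are all peaks, of any of the 7 lists, whose centre lies in this 3 Mb block. The block had been picked because peaks of the prostate cancer line VCaP crowd there and because its ERG peaks are wide, so peak number, width and covered bases in VCaP chose the members and are given as a description, with no test.

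ChIP-seq recovers the DNA bound by a protein with an antibody, sequences it and lists the regions with many reads as peaks. ERG and EWS were each mapped in VCaP, and in RWPE1, a line from normal prostate. RWPE1 cells of every ChIP group carried an ERG construct, either the point mutant ERG P436A or wild-type (WT) ERG. The series has 10 samples, of which 7 have a list: VCaP ERG, VCaP EWS, ERG in RWPE1 with P436A, EWS in the same mutant cells, WT ERG in RWPE1 as replicates 1 and 2, and EWS in RWPE1 with WT ERG. The 3 inputs were not used here. The same ERG antibody served all ERG samples and the same EWS antibody all EWS samples. All groups but WT ERG in RWPE1 have a single list, no treatment is labelled, and the labels do not say whether the replicates came from separate cultures or whether the RWPE1 lines were clones or pools.

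ERG is an ETS family factor, and such factors bind DNA at sites with a GGAA core. Many prostate cancers, VCaP among them, make ERG from a gene fusion that places it under an androgen-regulated promoter. EWS is an RNA-binding protein best known for its fusions with ETS factors in Ewing sarcoma, and it can act as a co-activator of transcription. In the RefSeq order of the GRCh38.p14 assembly, the genes MYO16, IRS2, COL4A1, COL4A2, RAB20, NAXD, CARS2, ING1, ANKRD10, ARHGEF7 and TEX29 follow each other on the distal long arm of chromosome 13. IRS2 is an adaptor of insulin receptor signalling, COL4A1 and COL4A2 are collagen chains of basement membranes, and ING1 is a chromatin-binding growth regulator. That table is of another build than the peaks, so no peak was assigned to a gene, and base sequences of the peaks were not read.

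VCaP supplied nearly all members. The block held 314 of 7712 VCaP ERG peaks, or 4.07% of that list (exact Clopper-Pearson 95% interval 3.64% to 4.54%), and 292 of 9500 VCaP EWS peaks, or 3.07% (2.74% to 3.44%). These were 68.6% of all ERG peaks and 66.1% of all EWS peaks that VCaP had on chromosome 13. The RWPE1 lists held 3 peaks of ERG P436A, 2 of EWS in mutant cells, 1 of WT ERG in replicate 1, 1 in replicate 2, and 6 of EWS with WT ERG. None of these lists had more than 0.172% of its peaks there, the share of ERG P436A. The intervals cover counting error only, and read depth is unknown for every list.

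**Figure D1:**
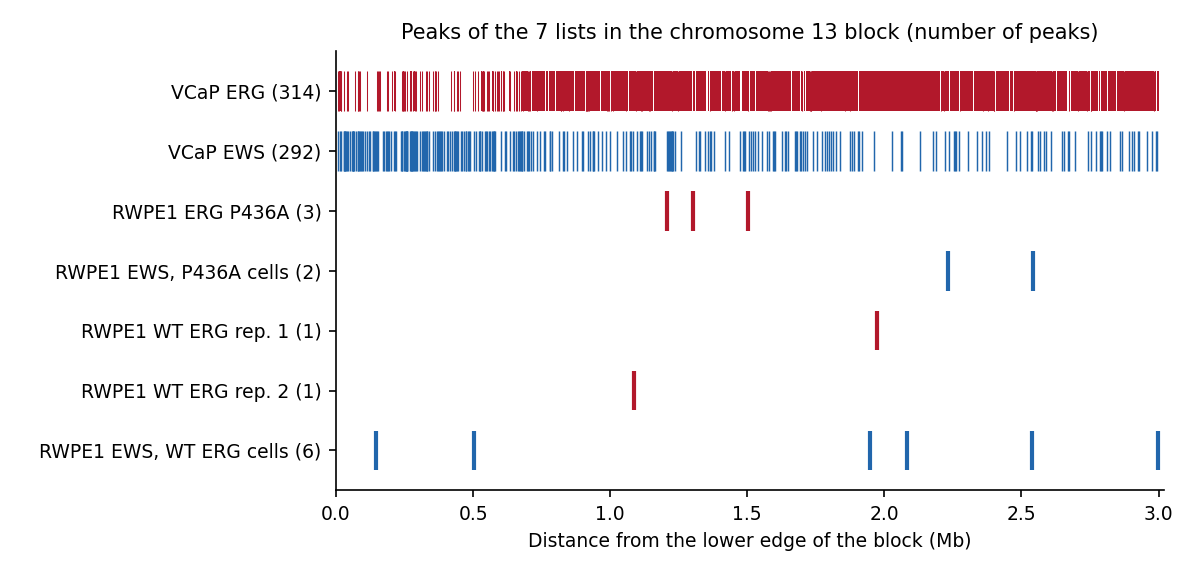
Peaks of the 7 lists along the block. The horizontal axis is the distance from the lower edge of the block in Mb and each row is 1 list with its number of peaks; VCaP ERG peaks over 2000 bp are drawn to scale as bars and all other peaks as lines at their centres, which are wider than the peaks, with ERG in red and EWS in blue. The VCaP ERG row turns from scattered peaks to near continuous coverage at about 0.7 Mb, the 292 VCaP EWS peaks lie closest together before that point, and each RWPE1 row holds 1 to 6 peaks.

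The 2 VCaP factors filled the block in unlike ways. ERG peaks covered 2119784 bp of it, 70.7% of its bases, whereas EWS peaks covered 142877 bp, or 4.76%. The ERG members had a median width of 2849 bp, with quartiles of 921 and 9452 bp, a lowest width of 469 bp and a highest of 60905 bp. The EWS members ran from 415 to 501 bp, with a median of 494 bp. Over the whole lists the median widths were 719 bp for ERG and 490 bp for EWS, and no peak of the VCaP EWS list was wider than 501 bp. Widths thus differ between the 2 lists everywhere, and it is not known whether both were called with the same settings, so covered bases cannot be read as amounts of bound protein.

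Wide ERG peaks, taken as those over 2000 bp, made up 176 of the 314 members, or 56.1% (50.4% to 61.6%). Over the whole VCaP ERG list 6.19% were as wide, and this contrast chose the block. The 176 were 36.9% of the 477 wide peaks of the list, and they held 93.8% of the summed width of the ERG members. Of the 116 ERG peaks over 10000 bp in the genome, 73 lay in the block and 92 on chromosome 13. The members next to the threshold were 1961 and 1966 bp wide just below it and 2005 and 2010 bp just above it. At the narrow end, 90 members were at most 1000 bp wide. The block was therefore a mixture of ordinary peaks and of broad ones, and the mixture was not the same along its length.

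Along the block, ERG peaks were narrow and separate at the lower end and wide and near contiguous further up. From 109 to 109.5 Mb the 48 ERG peaks had a median width of 557.5 bp, the widest was 1774 bp, and they covered 6.80% of the bases. From 109.5 to 110 Mb there were 73 ERG peaks, 29 of them wide, and 59.6% of the bases were covered. Both kinds of peak thus met within these 0.5 Mb.

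In the 4 bins of 0.5 Mb from 110 to 112 Mb, the ERG-covered shares were 86.2%, 89.9%, 91.2% and 90.2%. Median widths in the same order were 4751, 4962, 6428 and 8884 bp. The number of ERG peaks was 59, 41, 43 and 50, so coverage there was high with fewer peaks than the 73 found between 109.5 and 110 Mb.

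The step in coverage was sharp on a scale of 100 kb. Each of the first 7 windows of 100 kb was covered by ERG peaks at 3.74% to 27.4%, and each of the other 23 windows of the block at 81.1% to 96.6%. The window starting at 109.6 Mb stood at 27.4%, and the next, starting at 109.7 Mb, at 88.0%. The first wide ERG peak of the block was at 109676814 to 109680297, with a width of 3484 bp. No window of the block fell between these 2 levels.

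**Figure D2:**
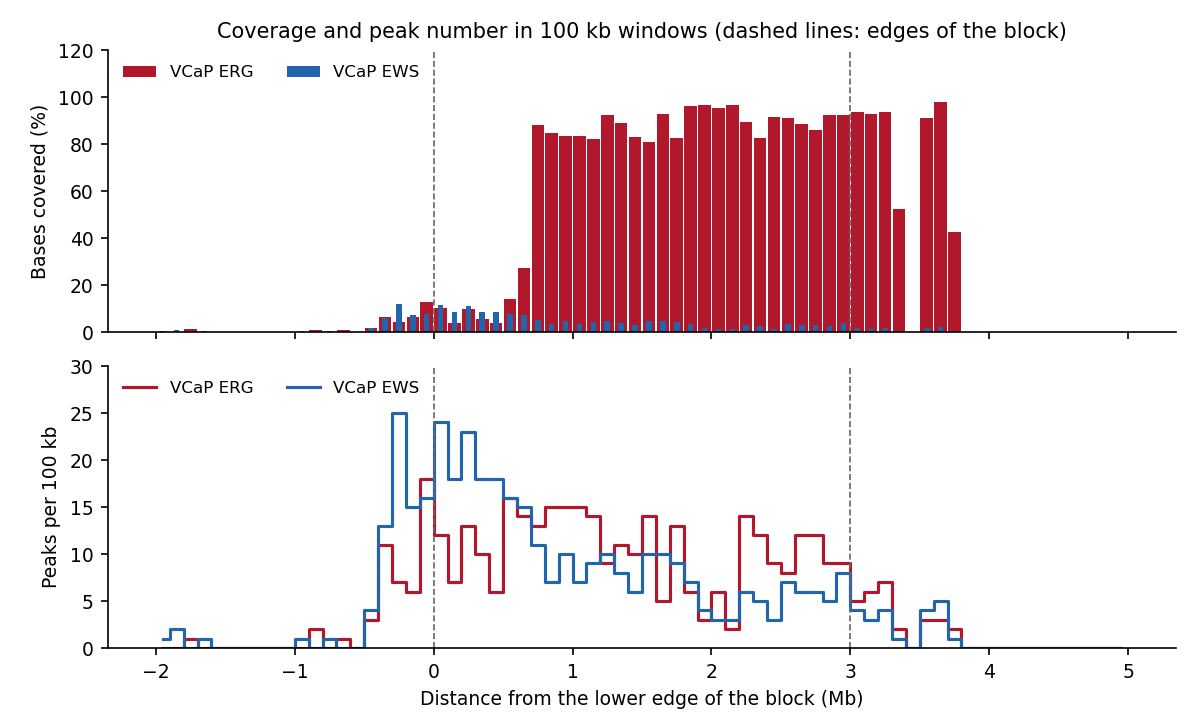
VCaP peaks in windows of 100 kb from 2 Mb below the block to 2 Mb above it, against the distance from its lower edge in Mb; dashed lines mark the block. The upper panel gives the percent of bases covered by ERG (red) and EWS (blue) peaks and the lower panel the number of peaks per window. ERG coverage steps up to 88.0% in the window that starts 0.7 Mb into the block and goes on past its upper edge, while EWS counts are highest, up to 25 a window, around the lower edge.

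The edges of the crowded region were not those of the block. On the lower side, ERG and EWS peaks were already dense before 109 Mb. From 108.5 to 109 Mb there were 45 ERG and 73 EWS peaks, against 3 and 2 in the 0.5 Mb before that. The dense run of ERG peaks opened at 108590152, after 217183 bp without one, and that of EWS peaks at 108581902, after 358192 bp without one. The 2 lists thus began to crowd 8250 bp apart. Just outside the lower edge the last peaks were at 108997022 to 108997754 for ERG and 108998330 to 108998823 for EWS, and just inside it the first were at 109006831 to 109007704 and at 109006681 to 109007169. These first members of the 2 lists overlapped each other.

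On the upper side the wide ERG peaks went on. Beyond the block chromosome 13 held 28 more ERG peaks, of which 25 were wide, and 22 more EWS peaks. The last ERG member, at 111994118 to 112003360, straddled the edge, and the next ERG peak followed after 886 bp at 112004247 to 112007581. The widest ERG peak beyond the edge was at 112039206 to 112093885, 54680 bp in width. The last peaks on the chromosome were at 112731999 to 112743677 for ERG and at 112728855 to 112729345 for EWS.

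Past that point neither VCaP list had a peak on chromosome 13, whereas the RWPE1 lists had 7, between 113885002 and 114844208. Of these, ERG P436A had 3, EWS in mutant cells 0, WT ERG 1 in replicate 1 and 2 in replicate 2, and EWS with WT ERG 1. Within the part beyond the block, a stretch of 149982 bp at 112354095 to 112504076 held no peak of any of the 7 lists. The ERG peaks on both sides of this stretch were wide, 21709 bp below it and 20473 bp above it.

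The 10 widest ERG members all lay above 110 Mb and ranged from 28238 to 60905 bp. Together they held 20.2% of the summed width of the ERG members. The widest was at 110973797 to 111034701, and it was the seventh widest of the whole VCaP ERG list. It was followed in width by the regions at 110795040 to 110854770 (59731 bp), 110587439 to 110643626 (56188 bp), 111106139 to 111151721 (45583 bp) and 111152303 to 111195521 (43219 bp). The other 5 began at 111572210, 110906134, 110940777, 111410861 and 110371937. The region from 110906134 to 111034701 was made of 3 of the 10, one after the other.

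**Figure D3:**
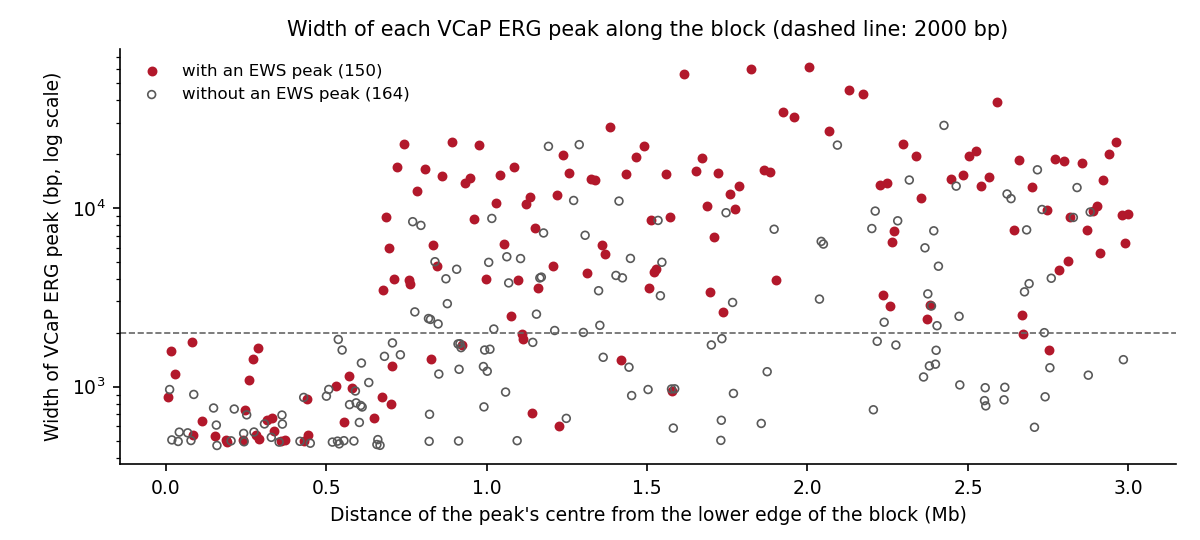
Width of each of the 314 VCaP ERG peaks (bp, log scale) against the distance of its centre from the lower edge of the block in Mb. Filled points overlap a VCaP EWS peak (150) and open points do not (164); the dashed line marks 2000 bp. No peak exceeds 1774 bp in the first 0.5 Mb, and peaks up to 60905 bp follow further on, among narrow ones that persist to the upper edge.

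Gaps between neighbouring ERG peaks were shorter where the peaks were wide. In the first 0.5 Mb the median gap was 5272 bp and 3 of 47 gaps were at most 1000 bp. In the last 2 Mb the median gap was 868 bp, 119 of 193 gaps were at most 1000 bp, and the longest was 5600 bp, at 110474352 to 110479951. The longest gap of the whole block was 49522 bp, at 109450950 to 109500471, and it held 8 EWS peaks. The 4 next longest, of 46720, 35441, 26722 and 26720 bp, all lay below 109.5 Mb and held 8, 7, 4 and 3 EWS peaks. The smallest gap in the block was 501 bp.

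EWS ran the other way: it was densest where ERG coverage was low. There were 101 EWS peaks in the first 0.5 Mb, or 202 per Mb (exact Poisson 95% interval 165 to 245). The following bins of 0.5 Mb held 59, 40, 40, 20 and 32, which for the last 2 Mb together is 66 per Mb (55.2 to 78.3). The median distance between neighbouring EWS centres was 3834 bp in the first 0.5 Mb and 10862 bp in the last 2 Mb. The numbers did not follow position evenly, as 111 to 111.5 Mb had the fewest EWS peaks and 111.5 to 112 Mb had more. All windows of 100 kb in the block held EWS peaks, 15 to 24 in each of the first 7 and 3 to 11 in each of the other 23.

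An EWS peak was counted at an ERG peak when at least 1 bp overlapped. By this count, 150 of the 314 ERG members had an EWS peak, or 47.8% (42.1% to 53.5%), against 723 of the 7398 ERG peaks elsewhere, or 9.77% (9.11% to 10.5%). Over the whole list the share was 11.3%. Of the EWS members, 188 of 292 lay at an ERG peak, or 64.4% (58.6% to 69.9%), against 787 of 9208 EWS peaks elsewhere, or 8.55% (7.98% to 9.14%), and 10.3% over the whole list. Since the block was chosen for its crowding and its wide peaks, these differences come with the choice, and peaks are not replicates.

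How many EWS peaks fall in ERG peaks has to be read beside how much of the block ERG covers. Over the whole block 176 EWS peaks, or 60.3% (54.4% to 65.9%), had their centre in an ERG peak, where ERG covered 70.7% of the bases. This pooled comparison mixes parts of unlike coverage and EWS density. The ratio of EWS density inside ERG peaks to that outside was 0.630 for the block. By part it was 2.97 in the first 0.5 Mb, 0.988 in the second 0.5 Mb and 1.62 in the last 2 Mb. From 109.5 to 110 Mb, 35 of 59 EWS centres lay in an ERG peak, or 59.3% (45.7% to 71.9%), beside a covered share of 59.6%. From 110 to 110.5 Mb it was 35 of 40, or 87.5% (73.2% to 95.8%), beside 86.2%, and from 110.5 to 111 Mb 36 of 40, or 90.0% (76.3% to 97.2%), beside 89.9%. From 110 to 111 Mb EWS centres were thus inside ERG peaks about as often as any base was. The bin from 109.5 to 110 Mb spans the step in coverage. It pools windows covered at 14.1% and 27.4% with windows covered at 83.5% to 88.0%, so its near equal shares describe neither part.

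At the lower end of the block EWS centres were inside ERG peaks more often than bases were. From 109 to 109.5 Mb, 18 of 101 EWS centres were in an ERG peak, or 17.8% (10.9% to 26.7%), beside a covered share of 6.80%. There the density of EWS centres was 529 per Mb inside ERG peaks (314 to 836) and 178 per Mb outside them (142 to 221), a ratio of 2.97. At the upper end, from 111 to 112 Mb, all 52 EWS centres lay inside ERG peaks, 20 of 20 up to 111.5 Mb and 32 of 32 from there on, beside covered shares of 91.2% and 90.2%. The exact intervals of these shares started at 83.2% and 89.1%, so each included the covered share of its bin. Over both bins together 90.7% of the bases were covered, and the exact interval of the pooled share, 93.2% to 100%, started above this. Peaks are not replicates, and whether the EWS share exceeded the covered share was not tested. Over the last 2 Mb the density of EWS centres was 68.8 per Mb inside ERG peaks (57.2 to 82.1) and 42.4 per Mb outside (19.4 to 80.5), which rests on 9 EWS peaks outside.

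**Figure D4:**
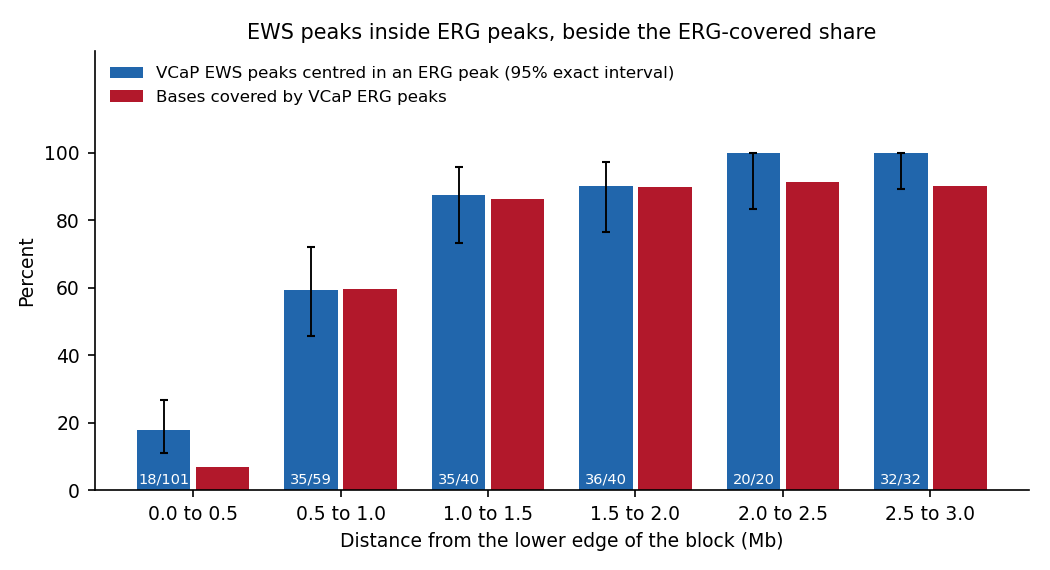
Share of VCaP EWS peaks centred in a VCaP ERG peak (blue, with exact 95% intervals and the counts at the foot) beside the share of bases that ERG peaks cover (red), for the 6 bins of 0.5 Mb of the block, both in percent. The 2 bars of a pair differ little from 0.5 to 2.0 Mb, though the first of these pairs spans the step in coverage and pools unlike parts. In the first 0.5 Mb the EWS share is 17.8% beside 6.80% covered.

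Among the 176 wide ERG peaks, 68 held no EWS peak, 84 held 1, 17 held 2, 4 held 3, and 1 each held 4, 5 and 6. A wide ERG region therefore most often held a single EWS peak of about 500 bp or none. The region with 6 was at 110587439 to 110643626, and that with 5 at 110795040 to 110854770, the third and second widest. The region with 4, at 110213779 to 110225523, was much narrower at 11745 bp, and its 3.41 EWS peaks per 10 kb stood above the 1.07 and 0.837 of the other 2.

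The number of EWS peaks varied among the widest ERG peaks. The widest ERG peak of the block, with 60905 bp, held 1 EWS peak, the fourth widest held 1, and the ninth widest, at 111410861 to 111439761, held 0 over 28901 bp. The 10 widest held 22 in all. The 4 regions with 3 EWS peaks were at 111572210 to 111611428, 109880107 to 109903455, 110479952 to 110501989 and 109778280 to 109790771, with widths of 39219, 23349, 22038 and 12492 bp. Within wide peaks, 66 of 143 EWS centres lay in the middle 50% of the ERG peak, or 46.2% (37.8% to 54.7%).

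By width class, wider ERG members more often held an EWS peak, but held fewer per base. EWS was present at 26 of 90 ERG peaks of up to 1000 bp (28.9%), at 24 of 46 of 5000 to 10000 bp (52.2%), at 44 of 52 of 10000 to 20000 bp (84.6%) and at 17 of 21 above that (81.0%). The density of EWS centres went the other way, with 315 per Mb of ERG peak in the narrowest class (190 to 492) and 54.4 per Mb in the widest (38.3 to 75.04). It did not fall at every step, with 68.6 per Mb at 5000 to 10000 bp and 74.3 per Mb at 10000 to 20000 bp. Position moved with width, as all ERG peaks of the first 0.5 Mb were narrow and EWS was densest there. Within the last 2 Mb alone, wide ERG peaks had EWS in 89 of 147 cases, or 60.5% (52.2% to 68.5%), and narrow ones in 8 of 46, or 17.4% (7.82% to 31.4%). Their densities were 67.3 per Mb (55.7 to 80.7) and 114 per Mb (41.7 to 247). The density of the narrow peaks there rests on 6 EWS centres and the intervals overlap, so the difference per base is not resolved within the last 2 Mb.

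**Figure D5:**
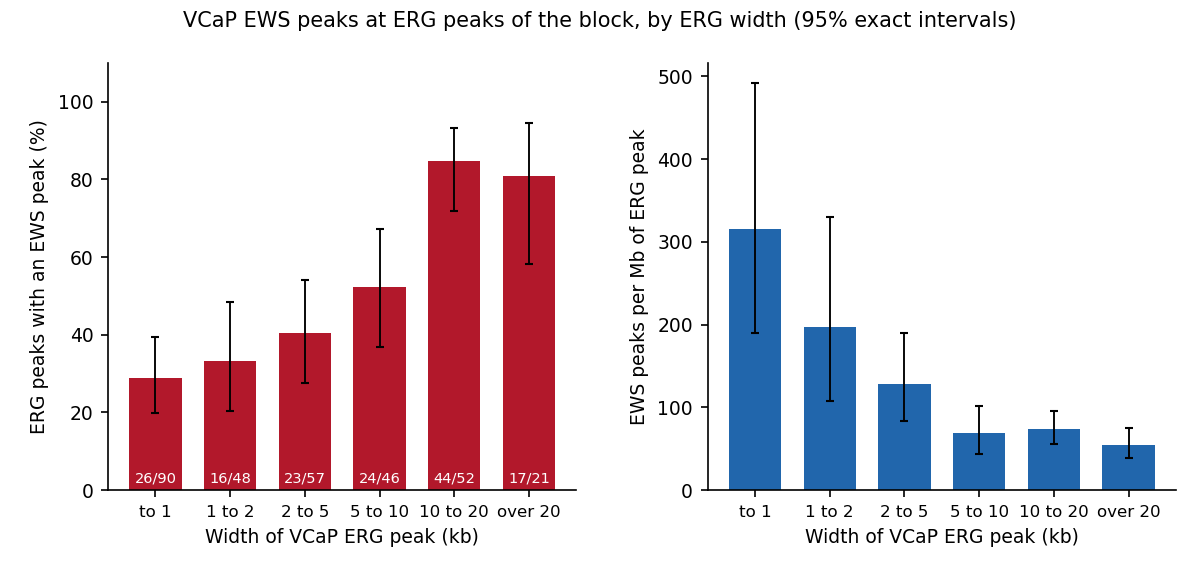
VCaP EWS peaks at the 314 VCaP ERG peaks of the block, by ERG width class in kb. The left panel gives the percent of ERG peaks with an EWS peak, with counts at the foot, and the right panel the number of EWS centres per Mb of ERG peak; bars carry exact 95% intervals. The percent goes up to 84.6% in the class of 10 to 20 kb, while the density is highest, 315 per Mb, in the narrowest class.

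Shares by width were also taken over the rest of the VCaP ERG list. Of wide ERG peaks, 108 of 176 in the block had EWS, or 61.4% (53.7% to 68.6%), against 163 of 301 in the rest of the list, or 54.2% (48.3% to 59.9%). Of ERG peaks up to 2000 bp, 42 of 138 in the block had EWS, or 30.4% (22.9% to 38.8%), against 560 of 7097 elsewhere, or 7.89% (7.27% to 8.54%). The block was picked on both lists, so these shares are a description.

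EWS peaks that did not touch an ERG peak numbered 104, of which 76 were centred below 109.5 Mb. Most of them thus lay in the part of the block where ERG peaks were narrow. Their distance to the nearest ERG peak had a median of 2498 bp and ran from 72 to 23285 bp. No EWS peak touched more than 1 ERG peak. This was fixed by widths and gaps, as no VCaP EWS peak exceeded 501 bp and no gap between VCaP ERG peaks was below 501 bp.

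Other VCaP blocks with many peaks were set beside this one, again as a description. On chromosome 11, 63 to 68 Mb held 704 ERG peaks with a median width of 822.5 bp, 119 of them wide and 4 over 10000 bp, and 19.9% of the bases were covered. On chromosome 6, 20 to 21 Mb held 167 ERG peaks with a median of 931 bp, 41 of them wide, and 29.8% were covered. ERG peaks with EWS made up 47.8% in the chromosome 13 block, 43.5% on chromosome 11 (39.8% to 47.2%) and 39.5% on chromosome 6 (32.1% to 47.4%). The share of EWS peaks at ERG was 64.4% on chromosome 13, where more is covered, 33.1% on chromosome 11 (30.3% to 36.0%) and 40.4% on chromosome 6 (32.9% to 48.1%).

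A stretch of the X chromosome, 66 to 68 Mb, had wider ERG peaks still. Its 26 ERG peaks had a median width of 21171 bp and reached 184765 bp, 22 were wide, and they covered 51.2% of the bases. It held 7 EWS peaks, or 3.50 per Mb, against 97.3 per Mb in the chromosome 13 block. Wide ERG coverage therefore occurred both with and without many EWS peaks. This stretch was chosen after its values were seen.

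In the deposited order of the lists, members above 110 Mb stood early. What sets this order is not known. In the VCaP ERG list, 120 of 193 members of the last 2 Mb were in the first 10% of the list, against 0 of 48 members of the first 0.5 Mb. ERG width moved with this: 135 of 176 members over 2000 bp were in the first 10%, against 8 of 138 up to 2000 bp. All 48 members of the first 0.5 Mb were narrow, so place in the block and width cannot be told apart for ERG. In the VCaP EWS list, where widths are nearly constant, 127 of 132 members of the last 2 Mb were in its first 10%, or 96.2%, against 9 of 101 of the first 0.5 Mb, or 8.91%. The median position was 1.31% of the way down the list for EWS peaks of the last 2 Mb and 37.0% for those of the first 0.5 Mb. The EWS peaks of the widely covered part were thus fewer per Mb but listed early.

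The first listed ERG members were at 111363060 to 111369034 (the third in the list, 5975 bp, no EWS peak), 111266533 to 111273909 (the sixth, 1 EWS peak) and 111789470 to 111807759 (the seventh, 2 EWS peaks). Those at 110316989 to 110331544 and 110455034 to 110474351 came next, with 2 and 1 EWS peaks. The first listed EWS members were at 110963651 to 110964145, 110625316 to 110625805, 111065501 to 111065989, 111304616 to 111305107 and 110380224 to 110380724. All 5 lay in ERG peaks of 22786 to 56188 bp. The ERG peak around the second of them is the one with 6 EWS peaks.

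RWPE1, where ERG came from a construct, had 13 members in all. Of these, 11 lay at a VCaP ERG peak and 2 at a VCaP EWS peak. Over the whole RWPE1 lists 3.12% of the peaks lay at a VCaP ERG peak and 2.02% at a VCaP EWS peak. The count of 11 stands beside the 70.7% of the block that VCaP ERG peaks cover, so it is not read as sites in common. None of the 13 peaks overlapped a peak of another RWPE1 list, and the 2 WT ERG replicates had no site in common here. Each replicate list had only 1 peak in the block, so this does not show how well the replicates match. The overlap between whole RWPE1 lists is not given here.

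The 3 ERG P436A peaks were at 110206005 to 110206501, 110301182 to 110301630 and 110501377 to 110501875. They lay within VCaP ERG peaks of 4751, 2010 and 22038 bp, and the first also overlapped a VCaP EWS peak, at 110205967 to 110206465. The WT ERG peak of replicate 1 was at 110971742 to 110972676, 935 bp wide and near the upper end of the VCaP ERG peak of 32281 bp at 110940777 to 110973057. That of replicate 2 was at 110085064 to 110085536, within a VCaP ERG peak of 16932 bp. Neither overlapped a VCaP EWS peak, the nearest being 7596 and 2197 bp away. With 3 peaks for the mutant and 1 in each WT list, the peaks are too few to compare the ERG forms in the block, and no test was made.

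EWS in RWPE1 also left few peaks in the block. In P436A cells the 2 EWS peaks were at 111230976 to 111231463 and 111541203 to 111541654, both inside wide VCaP ERG peaks. In cells with WT ERG the 6 EWS peaks began at 109145828, 109502916, 110947205, 111081483, 111538197 and 111997245. The first 2 of these touched no VCaP ERG peak, and the other 4 did. That at 111538197 to 111539810, the widest with 1614 bp, overlapped a VCaP EWS peak at 111537975 to 111538472. It lay 1392 bp from an EWS peak of the mutant cells, and both fell in the same VCaP ERG peak, at 111535553 to 111548873. This was the closest pair of peaks from 2 RWPE1 lists in the block.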

How the data were processed

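The deposited lists, 1 per ChIP sample, hold 3 columns, chromosome, start and end, so the unit of the deposited values is a position in base pairs, with no height, score or p-value per peak. Per the submitters' processing notes, the aligner was Bowtie2 (version listed as 0.12.8) and the genome hg19. For the peak caller and its settings, the sources used here name nothing. Starts were read as 0-based and are printed 1-based. Groups came from the labels. Within each list no 2 peaks overlapped. Overlap needed 1 bp; covered bases were counted once and cut at the edges of the bin or block. Intervals are exact (Clopper-Pearson for shares, Poisson for densities) at 95% and cover counting error only. The intervals are a description and no test was made: the members and lists were chosen with earlier results of these data known, and peaks are not replicates. Regions to be named were the 10 widest ERG peaks, those with most EWS peaks (7, as the fifth place was tied), the 5 longest gaps, the 5 first listed, the peaks at the edges and all RWPE1 members; others were chosen after their values were seen. Counting was tested on 20 simulated pairs of lists, all recovered exactly. Alternatives were other edges, overlap rules, widths and leaving out each replicate. All 11 genes named above were found in the RefSeq table, by symbol. The planned gene list also held TUBGCP3 and SOX1, which are not among those 11. Computations used Python 3.11.15, NumPy 2.4.6, SciPy 1.17.1 and matplotlib 3.10.9.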

Additional observations from a re-analysis of the deposited data

How the results depend on the processing

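Of 36 alternatives, 22 left the value within its interval or within 1.5 times. Joining ERG peaks with gaps of at most 1000 bp left 81 wide ones instead of 176. Bases covered by ERG came to 157000 bp with every peak set to 500 bp and to 131369 bp without peaks over 2000 bp, since the wide peaks hold the coverage. ERG peaks with EWS came to 5.10% with a reciprocal overlap of 0.5, 14.6% with centres within 500 bp, 14.6% with every peak at 500 bp and 30.4% without wide peaks. EWS peaks at ERG came to 5.48% with a reciprocal overlap of 0.5, 15.8% at 500 bp and 14.7% without wide peaks. Narrowing the block by 0.5 Mb on each side left 159 VCaP EWS peaks, 1 EWS peak of P436A cells and 3 of cells with WT ERG, and widening it gave 2 peaks of WT ERG replicate 2. Without either replicate the number of WT ERG peaks stayed at 1. No paired analysis was possible because a single group has 2 lists. Depth is unknown, so lists of unlike length cannot be put on a common scale.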

Other observations

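No gap between neighbouring peaks of the same list was 500 bp or less in any of the 7 lists: the smallest was 501 bp in VCaP ERG and in VCaP EWS, 680 bp in ERG P436A, 671 bp in EWS of P436A cells, 511 and 517 bp in WT ERG replicates 1 and 2, and 507 bp in EWS of cells with WT ERG. Where VCaP ERG peaks of the block were joined over gaps of up to 1000 bp, the 314 became 163, of which 2 were longer than 100000 bp. The longest joined region was at 110765130 to 110904432, 139303 bp with 12 VCaP EWS peaks, and 74.2% of the block was then covered.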
